A study of Mus musculus with 160 samples.

Results

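Liver RNA of wild-type mice was set against RNA of 4 other tissues, to describe which genes mark the normal liver and how strongly its transcripts are concentrated in few genes. The libraries were chosen by their labels alone: 8 liver libraries from wild-type mice on vehicle, and 8 libraries each of cortex, striatum, tibialis muscle and heart from wild-type mice on vehicle, so that 40 of the 160 libraries of the series enter. Per the labels, all 40 came from mice of C57BL/6J background without the R6/2 transgene that were given vehicle by mouth on a twice-daily schedule, and each tissue has 4 males and 4 females. Mouse numbers in the labels tie the libraries together as 1 library per tissue from each of 8 mice. The series was made to study an inhibitor of class IIa histone deacetylases in the R6/2 strain, which models Huntington's disease. Per the labels, none of the mice described here carried the transgene or received the inhibitor, and no age is given.

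The liver is built mainly of hepatocytes, which make most of the proteins of blood plasma, turn ammonia into urea, make bile acids and glucose, and oxidise drugs. These tasks are known to be set up by a small circle of transcription factors, among them the nuclear receptor HNF4A, the FOXA proteins and C/EBP alpha, which bind close to many liver genes and to the genes of one another. Kupffer cells (the resident macrophages), sinusoidal endothelium, stellate cells and bile duct cells make up the rest of the organ. Hepatocytes also differ along the blood flow, from the portal side, where urea and glucose are made, to the central vein, where glutamine and most drug-oxidising enzymes are made.

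Levels are given as TMM-scaled CPM, counts relative to library size, which correct each library for its depth and for the share that a few very abundant genes take. Genes are ranked by counts where shares of a library are described, which favours long transcripts, and levels within gene families are compared as FPKM, which also divide by transcript length. A value for a group of 8 libraries is its lowest, median and highest library unless a mean ± SD is named. Changes are log2 fold changes ± SE from edgeR's quasi-likelihood test, either liver minus the mean of the 4 other tissues or liver minus 1 of them, and a gene is called higher or lower where the Benjamini-Hochberg adjusted p is under 0.05. The margin of a gene is its smallest log2 fold change over the 4 tissues, that is, its distance from the tissue nearest to liver.

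Total counts ran from 32 to 34 M in liver and from 30.3 to 38.9 M in the other tissues (M, counts in units of 1e6). A median of 12134 genes reached 1 CPM before scaling in liver libraries, against 14763 in cortex, 14660 in striatum, 12116 in tibialis and 12858 in heart. Libraries that stand apart were found in the other tissues. In 8 of their 32 libraries albumin RNA stood at 7.03 to 65.6 CPM before scaling, against 0 to 1.39 CPM in the other 24, and 38 liver genes were in those 8 libraries at medians of 0.00732 to 0.0839% of their liver level. Margins that moved by at least 1 on the log2 scale without these 8 libraries are given both ways, a choice made after seeing the data, and the highest values of other tissues include the 8 libraries unless said otherwise. Where the nearest tissue then held at most 3 counts over its libraries, the margin is a lower bound, set at 3 counts. A cortex and a striatum library of 1 mouse labelled female had Xist and Ddx3y levels of the male libraries, while its liver library fitted the label. For these 2 brain libraries mouse, genotype and treatment rest on the labels alone and were not tested. Among the livers, Myh6, the heart myosin heavy chain, reached 27.3 CPM in M1 and 18.4 CPM in F1 against a liver median of 0.0403 CPM. The source of RNA of another tissue in a library was not tested.

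The 3 stretches of DNA that follow lie before genes whose values are described in the next paragraphs. The genes are albumin, which had the most counts in liver, and Apob and Cyp2c67, both among the 10 with the largest margin over all 40 libraries. The stretches are shown because promoters of this kind are where liver regulators are known to bind. Sequences are from RefSeq on GRCm38.p6, 5′ to 3′ on the strand of the gene, and end before the gene's first annotated base. Capitals mark matches to 3 short motifs searched on both strands: CAAAGTCCA for HNF4, TTGCNNAA for C/EBP and TATAAA for the TATA box. No match overlaps another. The Alb stretch ends at the RefSeq start, and the bases between it and the later gene start given below were not searched.
Alb, chr5:90460620-90460869, plus strand: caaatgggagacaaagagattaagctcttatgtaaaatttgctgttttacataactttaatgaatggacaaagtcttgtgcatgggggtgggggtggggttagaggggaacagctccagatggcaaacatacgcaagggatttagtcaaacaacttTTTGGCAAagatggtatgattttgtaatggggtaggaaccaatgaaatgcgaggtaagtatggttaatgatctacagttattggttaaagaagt
Apob, chr12:7977427-7977647, plus strand: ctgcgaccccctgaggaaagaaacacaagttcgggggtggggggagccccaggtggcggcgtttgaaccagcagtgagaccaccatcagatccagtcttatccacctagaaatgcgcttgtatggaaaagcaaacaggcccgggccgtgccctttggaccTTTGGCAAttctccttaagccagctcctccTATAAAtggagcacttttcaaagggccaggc
Cyp2c67, chr19:39649052-39649292, minus strand: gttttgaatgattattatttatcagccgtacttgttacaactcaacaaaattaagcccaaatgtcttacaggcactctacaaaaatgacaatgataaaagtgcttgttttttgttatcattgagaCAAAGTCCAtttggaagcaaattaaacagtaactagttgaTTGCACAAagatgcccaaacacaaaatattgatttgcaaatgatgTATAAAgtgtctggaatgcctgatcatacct
In the albumin sequence the capitals are a C/EBP match. The Apob sequence holds a C/EBP match and a TATA box, and the Cyp2c67 sequence holds an HNF4 match, a C/EBP match and a TATA box. A match is a description of letters and not a sign of binding.

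Liver transcripts were concentrated in few genes, and 1 nuclear gene stood above all others in counts. Albumin, the carrier protein of blood plasma, took 7.90 ± 0.922% of all counts from nuclear genes in liver (SD, n = 8; 7.03 to 9.32%). The most abundant nuclear gene of each library took 0.707 ± 0.0514% in cortex, 0.868 ± 0.156% in striatum, 4.74 ± 0.659% in tibialis and 3.38 ± 0.407% in heart (SD, n = 8 each). No liver library overlapped any library of another tissue. This order was lost against heart on FPKM and turned round there with mitochondrial transcripts included. In tibialis that gene was Myh4, the fast myosin heavy chain of skeletal muscle, with 4.74 ± 0.659%, and on average the most abundant gene of heart was Myh6 with 3.17 ± 0.291%. In cortex Meg3, a long noncoding RNA, led with 0.671 ± 0.0618%, and in striatum Gm28437, a nuclear copy of a mitochondrial gene, with 0.823 ± 0.176%. Gm28437 took 0.645% in cortex, 2.33% in tibialis and 3.01% in heart. Its counts may include reads of the mitochondrial genome, which was not tested. With pseudogenes left out, Meg3 led in striatum too, with 0.600 ± 0.0535%.

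Past its first gene, liver was more concentrated than brain and less so than skeletal muscle. The 10 most abundant genes of a library took 17.1 ± 0.954% in liver against 4.67 ± 0.219% in cortex, 5.06 ± 0.433% in striatum, 22.7 ± 0.795% in tibialis and 17.4 ± 0.865% in heart. The number of genes that held 50% of counts was 180.8 ± 18.01 genes in liver, against 1170 ± 21.01 in cortex, 1121 ± 6.66 in striatum, 130.1 ± 11.6 in tibialis and 371 ± 26.1 in heart. The effective number of genes, which weighs all genes by their share (the exponential of the Shannon entropy), was 1349 ± 75.9 in liver, 5280 ± 59.7 in cortex, 5061 ± 66.7 in striatum, 1122 ± 60.7 in tibialis and 2064 ± 110.2 in heart. Of these comparisons, all but the top 10 genes in heart had groups that did not overlap, with an adjusted p of 0.000174 by the two-sided exact permutation test over 28 tests, where a raw p of 0.000155 is the smallest that 8 against 8 allow. This test takes libraries as independent, although the 8 mice gave 1 library of each tissue. An exact sign-flip test on pairs with the same mouse number in the labels left all 28 results the same. The smallest p that the sign-flip test allows for 8 pairs is 0.00781. The share of the top 10 genes in liver was 0.325 percentage points under that in heart (exact permutation test, adjusted p = 0.5004), so the order of these 2 tissues was not settled by this measure.

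The order against heart, and in part against tibialis, depends on which genes are counted and how. Transcripts of the mitochondrial genome took 8.99 ± 0.679% of all counts in liver, 8.88 ± 0.660% in cortex, 10.4 ± 0.702% in striatum, 23.3 ± 0.953% in tibialis and 31.4 ± 1.09% in heart. With them included, the most abundant gene took 7.19% in liver and 11.3% in heart, without overlap (exact permutation test, adjusted p = 0.000162), and 7.49% in tibialis, not past the threshold from liver (adjusted p = 0.356). The top 10 genes took 14.0 percentage points less in liver than in heart, and liver needed 80.88 more genes than heart to reach 50% of counts. The mitochondrial share itself differed from tibialis and heart without overlap (exact permutation test, adjusted p = 0.000174 each), from striatum with an adjusted p of 0.00251, and not past the threshold from cortex (adjusted p = 0.769). On FPKM, which divide by length, the most abundant nuclear gene took 7.11 ± 0.996% in liver and 7.04 ± 0.966% in heart (exact permutation test, adjusted p = 0.9029). The number of genes holding 50% of FPKM was 101.1 ± 19.4 in liver and 102.4 ± 18.2 in heart, a difference of -1.25 (exact permutation test, adjusted p = 0.9029). Nuclear pseudogenes, some of them copies of mitochondrial genes, shifted the order the other way when left out: the top 10 genes then took 17.5 ± 0.995% in liver and 12.7 ± 0.413% in heart, a difference of 4.75 percentage points (exact permutation test, adjusted p = 0.000178). Without them, 185.2 ± 16.6 genes held 50% in liver and 174.9 ± 11.2 in tibialis, groups that overlap and did not pass the test (exact permutation test, adjusted p = 0.168).

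**Figure D1:**
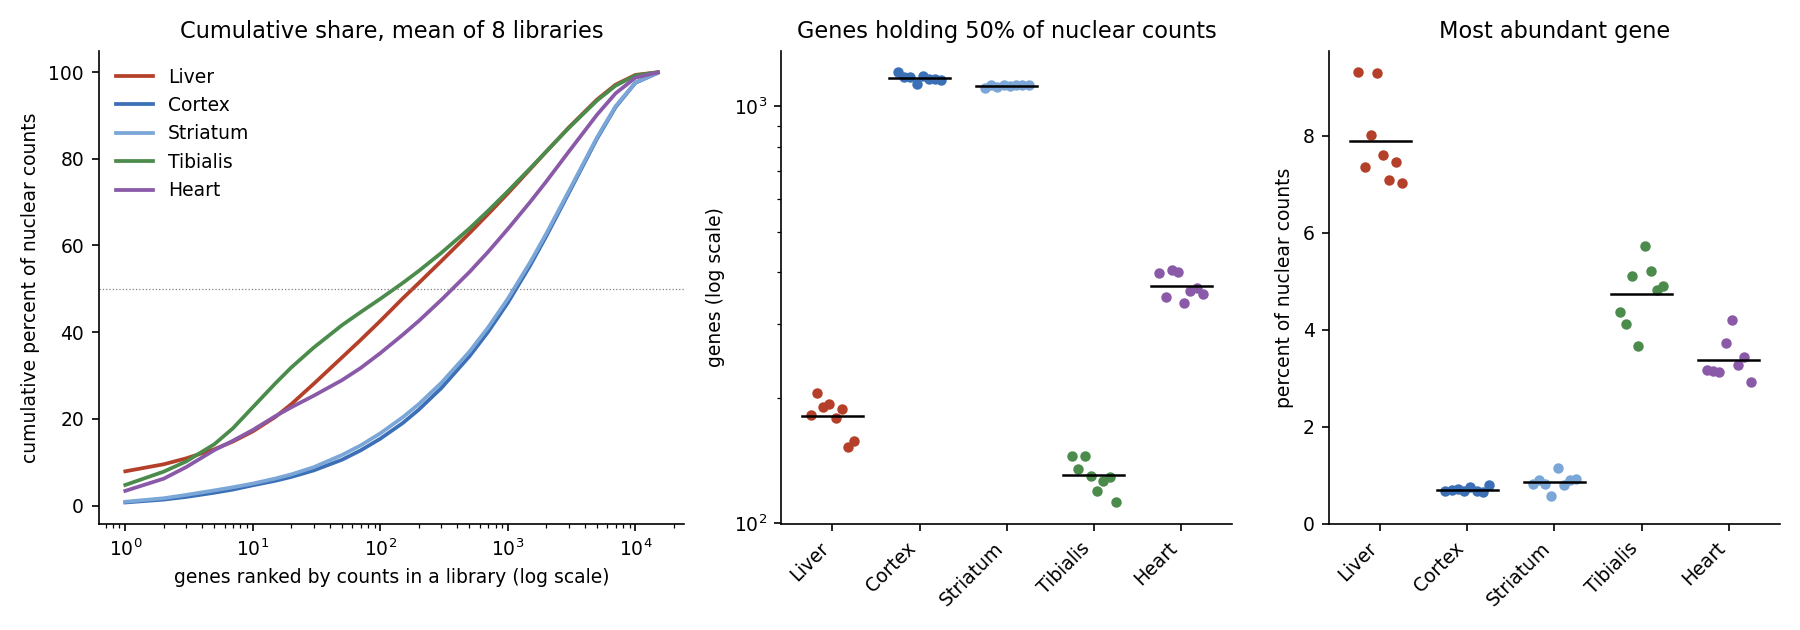
Concentration of nuclear transcripts in wild-type liver and 4 other tissues. Left, cumulative percent of nuclear counts (y) over genes ranked by counts (x, log scale), mean of 8 libraries a tissue; middle and right, the number of genes holding 50% of counts (log axis) and the percent in the most abundant gene, 1 point a library and a bar at the mean. Liver libraries lie between 7.03 and 9.32% for the most abundant gene, above all others, and between 152 and 205 genes for 50% of counts, above tibialis and below heart and brain.

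The 10 nuclear genes with the most counts in liver were Alb, Trf, Scd1, C3, Cyp3a11, Apoe, Cyp2e1, Mup10, Ahsg and Serpina3k, and 7 of them encode secreted proteins. Alb (ENSMUSG00000029368; chromosome 5, 90460897 to 90476602 in GRCm38, plus strand) had 87190, 99680 and 117000 CPM in liver as lowest, median and highest library. Its medians were 0.00929 CPM in cortex, 0.0202 in striatum, 1.48 in tibialis and 0.0838 in heart, with 87.3 CPM in the highest of the 32 libraries. Every liver library was thus far above every other library. The margin of Alb, over tibialis, was 12.08, and it was 16.98 without the 8 libraries with albumin above 5 CPM. Trf, which encodes transferrin, the iron carrier of plasma, had 17600, 20280 and 23220 CPM in liver, against medians of 113 in cortex, 252 in striatum, 19.3 in tibialis and 40.1 in heart. Its nearest tissue was striatum, at a margin of 6.35, and oligodendrocytes are also known to make transferrin. Apoe, the lipoprotein ligand that astrocytes make as well, behaved likewise, with 9325, 11660 and 12800 CPM in liver against medians of 454 in cortex and 507 in striatum, and a margin of 4.51.

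Scd1, the desaturase that makes oleic acid, was the third gene by counts and, after Serpina3k, the most uneven of the 10. It had 5776, 17580 and 21340 CPM in liver, against 77.0 to 159.7 CPM as medians of the other tissues and 500 CPM in the highest library. The groups did not overlap, and the change against the mean of the 4 tissues was 6.70 ± 0.30 (edgeR, adjusted p = 1.12e-22). Complement component C3, the hub of the complement cascade, had 9371, 12660 and 16490 CPM in liver, against medians of 0.192 in cortex, 0.457 in striatum, 105 in tibialis and 204 in heart. Cyp3a11 and Cyp2e1, which oxidise drugs and alcohol, had liver medians of 11170 and 10500 CPM. The highest of the other libraries held 10.02 CPM of Cyp3a11 and 35.8 CPM of Cyp2e1. Reads of Cyp3a11 and of its close paralogs, as of the Mup and Serpina3 genes, may be split between family members in ways the files do not show.

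**Figure D2:**
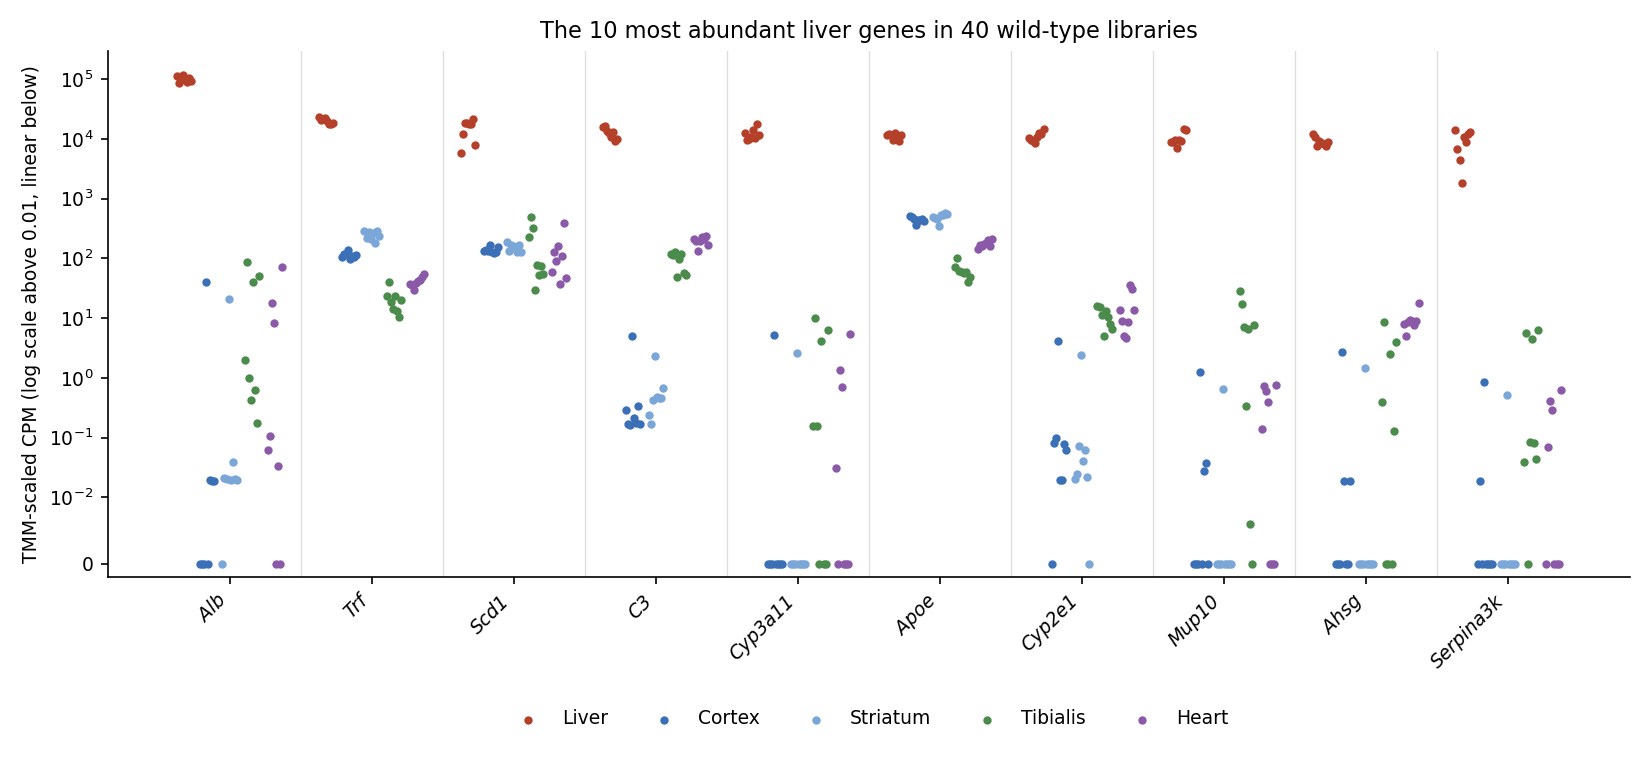
Levels of liver genes in each of 40 libraries. TMM-scaled CPM (y, log scale above 0.01 and linear below) for the genes named on the x axis, liver libraries left and those of cortex, striatum, tibialis and heart to the right of them in each column, 1 point a library, n = 8 a tissue. Liver libraries form the top group for Alb, between 87190 and 117000 CPM, while single libraries of the other tissues reach up to 87.3 CPM.

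Over all genes, liver differed from the other tissues in both directions. Of 18594 genes tested, 7432 (40%) were higher in liver than in the mean of the 4 tissues and 8546 (46%) were lower (edgeR, adjusted p under 0.05). Against single tissues, 43.1% were higher and 46.4% lower than in cortex, 42.8% and 46.2% than in striatum, 36.7% and 44.7% than in tibialis, and 36.3% and 43.9% than in heart. The split hangs on scaling: 46.5% of called genes were higher in liver in the main fit, 44.5% with RLE scaling, 43.0% with DESeq2, 29.4% with library totals alone and 28.5% on FPKM with limma. The median gene had a log2 change of -0.18 in the main fit and of -0.78 with library totals alone, so small changes take their sign from the scaling. A stricter call needed a log2 margin of 2 and an adjusted p under 0.05 over each of the 4 tissues, and 1427 genes (7.67%) met it as liver-enriched while 1719 (9.24%) met its mirror image as liver-depleted. Without the 8 libraries with albumin above 5 CPM these calls numbered 1513 and 1662, and 1413 of the 1427 were still enriched. These shares of all genes, 40% higher, 46% lower and 7.67% enriched, are the background for the counts of every gene list below. Since members and lists were chosen with earlier results of these data known, those counts describe the choice and test nothing. In bulk tissue, fewer cells of a type and less RNA per cell cannot be told apart.

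The liver-enriched genes took most of the liver transcriptome. They held 61.5 ± 0.640% of nuclear counts in liver (SD, n = 8), against 1.90 ± 0.0473% in cortex, 1.97 ± 0.0672% in striatum, 1.182 ± 0.0890% in tibialis and 2.01 ± 0.101% in heart. Since these genes were called on the same libraries, the shares describe them and test nothing. The liver-depleted genes held 0.112 ± 0.0118% in liver, against 14.3 ± 0.178% in cortex, 14.3 ± 0.145% in striatum, 21.3 ± 0.537% in tibialis and 6.84 ± 0.121% in heart. The tissue nearest to liver was heart for 579 of the enriched genes, tibialis for 443, cortex for 209 and striatum for 196. Without the 8 libraries these counts were 591, 350, 251 and 235. A margin of at least 10 was found for 260 of them, and for 275 without the 8 libraries. With the nearest tissue set to 3 counts where it held no more, these were 256 and 253, and that limit applied to 60 and 177 genes. Of the 1427 genes 1269 are protein coding.

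The genes with the largest fitted margins were near absence everywhere else. Among enriched genes with at least 10 CPM in liver, over all 40 libraries, these were Akr1c20, Cyp2c38, Mup21, Ugt2b35, Ces3b, Apob, Cyp2c67, Itih1, Cyp2c29 and Sult2a8. Of these 10, 7 are enzymes of steroid or drug conversion. This ranking did not hold without the 8 libraries with albumin above 5 CPM. Fitted margins were then 18.07 for Fgb, 18.06 for Kng1 and 18.04 for Fgg, with lower bounds at 3 counts of 17.72, 16.74 and 17.46. Akr1c20 had 13.44 (at least 12.17) and Ces3b 12.59, while Cyp2c29 had 20.11 (at least 17.26). Where a bound is given, the nearest tissue held at most 3 counts, and the fitted value is not a measured distance. Akr1c20, an aldo-keto reductase (chromosome 13, 4486849 to 4523345, minus strand), had 85.0, 109.6 and 144 CPM in liver and a median of 0 in each other tissue. Its counts in all 4 tissues were at or under the limit of 3 counts over a group, which puts liver at least 7301-fold above tibialis and at least 9156-fold above heart. Apob, the structural protein of very low density lipoprotein, had 6917, 8290 and 9812 CPM in liver against medians of 0.0098 to 0.0979 CPM in the other tissues. Its margin was 12.72 over tibialis, or 17.09 without the 8 libraries.

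Itih1, a hyaluronan-binding protein of plasma, was the most even of these genes, with 835, 865 and 1062 CPM in liver and at most 0.568 CPM in any other library. Cyp2c29 had 3125, 3812 and 5284 CPM in liver, and the other tissues had a median of 0. Its margin was 12.62, and at least 17.26 without the 8 libraries, since none of the other 24 held a count. Cyp2c67, whose promoter is printed above, had 120.5, 362 and 510.0 CPM in liver, and no count at all in the 24 libraries with albumin at or under 5 CPM. The Cyp2c, Ugt2b, Ces3, Akr1c and Mup families hold close copies, so that levels of single members are uncertain while the sum of a family is less so.

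Motif matches were more frequent before liver-enriched genes, as a description of the printed motifs over the RefSeq promoter table. The windows ran over the 250 bases before each annotated start, and 1024 enriched, 1189 depleted and 13188 tested genes had one. HNF4 matches stood before 1.95% of enriched genes, against 0.505% of depleted and 0.493% of all tested ones. For C/EBP the shares were 15.8% of enriched, 9.5% of depleted and 9.43% of all tested genes, and for the TATA box they were 16.6, 10.9 and 9.05% in the same order. Over all 27025 genes of the promoter table, tested or not, the shares were 0.451% for HNF4, 10.8% for C/EBP and 14.3% for the TATA box. Against that table the TATA box thus differed little. A missing match says only that these letters are not in the window.

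Proteins that hepatocytes secrete into plasma formed the largest block of liver RNA. All 40 listed plasma proteins tested were higher in liver (40% of all genes tested were), all 40 were liver-enriched (7.67% of all genes), and in all 40 every liver library lay above all 32 others (16% of all genes). Their median log2 change was 12.54, or 12.70 with genes at the count limit set to their bound, against -0.18 over all genes tested. Together they took 17.9 ± 1.05% of nuclear counts in liver, 0.0888% in cortex, 0.0918% in striatum, 0.0394% in tibialis and 0.0709% in heart. Ahsg, a carrier of calcium phosphate, had 7521, 8647 and 12330 CPM in liver, and its nearest tissue was heart, with a median of 8.73 CPM and a margin of 9.85. Ttr, the carrier of thyroid hormone, had 5394, 6045 and 6797 CPM in liver. The choroid plexus of the brain is known to make it too, and the highest library, a brain one, held 606 CPM; its margin over cortex was 5.16.

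Serpina3k, a serine protease inhibitor, spread most among the abundant plasma proteins, with 1865, 9861 and 14100 CPM in liver and at most 6.35 CPM elsewhere. Serpina1b and Serpina1c, antitrypsin genes, had liver medians of 7483 and 7122 CPM, and reads may be shared among the Serpina1 copies.

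Lipoprotein genes were liver genes with few exceptions. Of 26 tested, 25 were higher in liver (24 by library totals alone), 1 was lower, 23 were enriched, and the median change was 11.64 (11.68 with bounds) against -0.18 for all genes. By FPKM the most abundant were Apoe at 8455 ± 1441, Apoa2 at 7794 ± 372 and Apoc1 at 5303 ± 358 in liver (SD, n = 8). Apoa1, the main protein of high density lipoprotein, had 2864, 6212 and 6975 CPM in liver, with 5.31 CPM in the highest other library. Apoa2, its partner, was far more even at 5178, 5534 and 5746 CPM. Apoc3 (1145, 1265 and 1450 CPM in liver), which slows the clearance of triglyceride, had a margin of 11.08 over tibialis, or 12.83 without the 8 libraries. The exception was Lpl, lipoprotein lipase, which takes up fatty acids in heart and muscle: it had 12.7, 26.4 and 82.0 CPM in liver, 13.1 as a median in cortex, 56.9 in striatum, 669 in tibialis and 4808 in heart. Its change was -2.77 ± 0.19 against the mean of the 4 tissues and -7.21 against heart (edgeR, adjusted p = 2.28e-16 for the mean).

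Clotting and complement genes followed the plasma proteins. All 22 clotting genes tested were higher in liver and 20 were enriched, with a median change of 12.44 (12.54 with bounds). The 3 fibrinogen chains had liver medians of 5951 CPM for Fga, 5095 for Fgb and 4322 for Fgg, and the highest other library held 4.79 CPM of Fgb. Plg, plasminogen, which dissolves clots, had 3008, 3267 and 3897 CPM in liver, and Kng1, the kinin precursor, had 2425, 2595 and 3013 CPM. Serpinc1, antithrombin, with 2287, 2561 and 3099 CPM in liver, had the smallest margin of the 6 named, 9.08 over striatum.

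Of 25 complement genes tested, 24 were higher in liver, 0 were lower and 20 were enriched, with a median change of 8.97 (8.96 with bounds). Cfb, the protease of the alternative pathway, had 1409, 1590 and 1746 CPM in liver, against medians of 0.395 in cortex, 0.309 in striatum, 7.55 in tibialis and 3.12 in heart. Cfi, which cleaves C3b, had 744, 813 and 895 CPM in liver and at most 1.05 CPM elsewhere. Cfd, factor D, which fat cells are known to make, did not pass the test against the mean (-0.91 ± 2.69, edgeR, adjusted p = 0.773): it had 0, 0.0605 and 0.585 CPM in liver, medians of 0 in both brain regions, 19.5 in tibialis and 25.4 in heart. The log2 change of Cfd was -7.36 against tibialis and -7.51 against heart.

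Hormones and receptors of the liver showed a wider range. All 23 hepatokine and receptor genes tested were higher (22 by library totals alone) and 19 were enriched, with a median change of 8.52 (8.62 with bounds). Hamp, hepcidin, which limits iron uptake, had 150.3, 384 and 593 CPM in liver and a median of 3.59 CPM in heart, the nearest tissue, at a margin of 6.45. Hamp2, its copy, spread from 31.6 to 776 CPM among livers with a median of 106 CPM. Agt, angiotensinogen, the precursor of angiotensin, had 423, 661 and 896 CPM in liver, against medians of 4.63 in cortex, 6.79 in striatum, 11.97 in tibialis and 4.05 in heart. Igfbp4, a carrier of insulin-like growth factors, had 930.0, 1341 and 1553 CPM in liver against medians of 24.9 to 74.1 CPM. Asgr1, a receptor that takes up galactose-ended glycoproteins, had 453, 525 and 545 CPM in liver and at most 0.988 CPM elsewhere.

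The transcription factors of hepatocyte identity took a small share of liver RNA, and part of them set liver apart from every other tissue while others were shared. All 29 tested were higher in liver than in the mean of the other tissues (28, with 1 lower, by library totals alone) and 18 were enriched, with a median change of 7.46 (7.48 with bounds) and a median margin of 2.73; together they took 0.338 ± 0.0325% of nuclear counts in liver. Hnf4a (ENSMUSG00000017950; chromosome 2, 163506808 to 163572910, plus strand) had 722, 846 and 969 CPM in liver. Its medians were 0 in cortex, striatum and heart and 0.0194 in tibialis, with at most 0.668 CPM in any library and at most 0.0387 CPM in the 24 libraries with albumin at or under 5 CPM. The margin of Hnf4a was 12.52, and at least 15.06 without the 8 libraries.

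The FOXA factors, which open chromatin at liver genes, had liver medians of 17.3 CPM for Foxa1, 23.1 for Foxa2 and 44.2 for Foxa3. Foxa1 and Foxa2 were at or under the count limit in both brain regions and tibialis and had their margin in heart, 6.98 and 9.88. Creb3l3, a membrane-bound factor of the fasting response, had 259, 348 and 417 CPM in liver and at most 0.527 CPM elsewhere. The nuclear receptors Nr1i3, Nr1i2 and Nr1h4, which sense drugs and bile acids, had liver medians of 549, 99.1 and 136 CPM and margins of 9.39, 11.77 and 7.84. Nr5a2, which drives bile acid genes, had 87.8, 97.0 and 120.2 CPM in liver and a margin of 6.41.

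Other members were shared with 1 or more of the tissues. Cebpa, the C/EBP factor of hepatocytes and fat cells, had 234, 273 and 346 CPM in liver against medians of 3.26 to 4.65 CPM, a margin of 5.60. Cebpb, its partner in the acute phase, had 15.2, 20 and 33.6 CPM in liver but 10.3 in tibialis as a median, a margin of 1.04 that left it outside the enriched genes. Prox1 had a median of 161 CPM in liver and 86.5 in heart, and Ppara, the fatty acid sensor, 179 in liver and 42.7 in heart. Gata4 and Gata6 were lower in liver than in heart, where they build the heart muscle: Gata4 had 16.2, 19.4 and 28.8 CPM in liver against a heart median of 98.96, and Gata6 5.22, 7.60 and 8.99 CPM in liver against 53.7. The changes against heart were -2.28 for Gata4 and -2.79 for Gata6. Zhx2, a repressor of fetal liver genes, was called higher at 0.36 ± 0.07 (edgeR, adjusted p = 9.64e-06), but its change was -0.25 both with library totals and on FPKM.

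Nitrogen metabolism was a liver trait down to single genes. All 9 urea cycle genes tested were higher and 8 were enriched, with a median change of 8.97, and all 32 genes of amino acid breakdown were higher and 31 enriched, with a median of 11.34 (11.38 with bounds). Cps1, which takes up ammonia as the first enzyme of the cycle, had 6174, 7726 and 11340 CPM in liver, and at most 7.75 CPM in another library, or 0.381 CPM without the 8 libraries with albumin above 5 CPM. Otc, the second enzyme, had 615, 759 and 948 CPM in liver and a margin of 11.77, or at least 14.93 without the 8 libraries. Ass1 and Asl, which make arginine, are also used outside liver: Ass1 had 2923, 4885 and 8126 CPM in liver against 37.0 as a median in striatum, and Asl 357, 536 and 889 CPM against 4.05 to 6.72 CPM. Their margins were 7.09 and 6.40. Glud1, glutamate dehydrogenase, had the smallest margin of those named, 2.97 over tibialis, with 1330, 1473 and 1736 CPM in liver.

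Amino acid enzymes included Mat1a, which makes the methyl donor S-adenosylmethionine, with 3448, 4605 and 8533 CPM in liver and a margin of 12.36, or 16.19 without the 8 libraries. Bhmt, which remakes methionine from betaine, had 2544, 4446 and 5594 CPM, and Gnmt, which disposes of methyl groups, 969, 1472 and 2250 CPM. Hpd and Tat, of tyrosine breakdown, had liver medians of 2312 and 2177 CPM, and Tdo2, of tryptophan breakdown, 2432 CPM. Tat spread from 1043 to 4009 CPM among the livers. None of these 6 genes reached 6 CPM in any other library.

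Bile acid and drug genes had a median margin of 10.74 and 11.55, beside 10.84 for plasma proteins. With genes at the count limit set to their bound these were 10.76, 11.63 and 11.12, and without the 8 libraries 11.47, 13.45 and 11.32. All 23 bile acid genes tested were higher and 22 enriched, with a median change of 11.80 (11.87 with bounds), and all 44 drug and alcohol genes were higher and all 44 enriched, with a median of 12.66 (12.82 with bounds). Slc10a1 and Slco1b2, which take bile acids up from blood, had 742, 931 and 1024 CPM and 1639, 1937 and 2677 CPM in liver, and margins of 11.84 and 12.39, or 13.55 and 13.42 without the 8 libraries. Slc27a5, which joins bile acids to coenzyme A, had 1299, 1439 and 1661 CPM in liver. Cyp27a1, the first enzyme of the acidic pathway, had 502, 658 and 760.5 CPM in liver against a median of 84.2 CPM in tibialis, a margin of 2.94. Cyp1a2, of the central vein region, had 832, 992 and 1408 CPM in liver, medians of 0 in all 4 other tissues and a margin of 12.27, or at least 15.41 without the 8 libraries. Gstm1, a glutathione transferase, was more widely used, with 1689, 2027 and 2580 CPM in liver against medians of 81.3 to 163 CPM.

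Energy metabolism was split between genes of liver alone and genes that muscle and heart also use. Of 20 glucose genes tested, 19 were higher, 0 were lower (1 by library totals alone) and 16 were enriched, with a median change of 7.25. Pck1, which makes glucose from lactate and amino acids, had 2420, 3496 and 5239 CPM in liver with up to 87.4 CPM elsewhere. Khk, which phosphorylates fructose, had 247, 312 and 404 CPM in liver. Ppp1r3c, a glycogen targeting subunit, did not pass the test (-0.17 ± 0.19, edgeR, adjusted p = 0.420), with 30.2, 66.2 and 135 CPM in liver against medians of 26.6, 24.99, 427 and 119 CPM in cortex, striatum, tibialis and heart.

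Of 28 lipid and ketone genes tested, 27 were higher, 1 was lower and 16 were enriched, and the median change was 3.51 (3.55 with bounds). Fabp1, the fatty acid carrier of liver, had 1875, 3401 and 3918 CPM in liver and at most 2.52 CPM elsewhere. Acsl1, which activates fatty acids, had 1070, 1382 and 1768 CPM in liver and 1042 as a median in heart, a margin of only 0.50. The gene that was lower was Oxct1, which other tissues need to burn ketone bodies: it had 3.82, 6.40 and 9.29 CPM in liver against 189, 193, 610 and 1315 CPM as medians in cortex, striatum, tibialis and heart. Its change was -6.05 ± 0.13 against the mean (edgeR, adjusted p = 9.72e-34).

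Peroxisome genes were higher in 21 of 22 tested, lower in 1 and enriched in 16, with a median change of 4.47 (4.48 with bounds). Uox, urate oxidase, had 1697, 3554 and 3918 CPM in liver and at most 3.12 CPM elsewhere, while Cat, catalase, had 3313, 4030 and 5356 CPM in liver against medians of 24.3 in cortex, 25.5 in striatum, 126 in tibialis and 220 in heart. Crat, carnitine acetyltransferase, was lower in liver by the mean contrast (-1.30 ± 0.08, edgeR, adjusted p = 9.65e-19): it had 32.5, 52.5 and 72.3 CPM in liver, above the medians of cortex (27.9) and striatum (31.99) and under those of tibialis (648) and heart (508).

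The machinery of secretion was raised, but by small factors beside the proteins it exports. Of 36 genes of import, folding and export at the endoplasmic reticulum, 33 were higher in liver, 2 were lower and 5 were enriched. Of all genes tested, 40% were higher, 46% lower and 7.67% enriched. The median change was 1.51 and the median margin 0.999, against -0.18 and -1.05 over all genes. The 36 genes took 0.742 ± 0.106% of nuclear counts in liver, 0.328% in cortex, 0.339% in striatum, 0.277% in tibialis and 0.424% in heart. P4hb, protein disulfide isomerase, had 1424, 1518 and 1623 CPM in liver against medians of 53.7, 71.6, 201 and 213 CPM in cortex, striatum, tibialis and heart, and a margin of 2.86. Hspa5, the main chaperone, had 668, 828 and 1514 CPM in liver and 528 as a median in heart. Srp14 and Kdelr3 were lower at -0.62 ± 0.06 and -1.70 ± 0.19, and Sec11c, a signal peptidase subunit, did not pass (0.05 ± 0.07, edgeR, adjusted p = 0.525). Here the scaling matters: with library totals alone 31 of the 36 were higher and 5 lower.

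**Figure D3:**
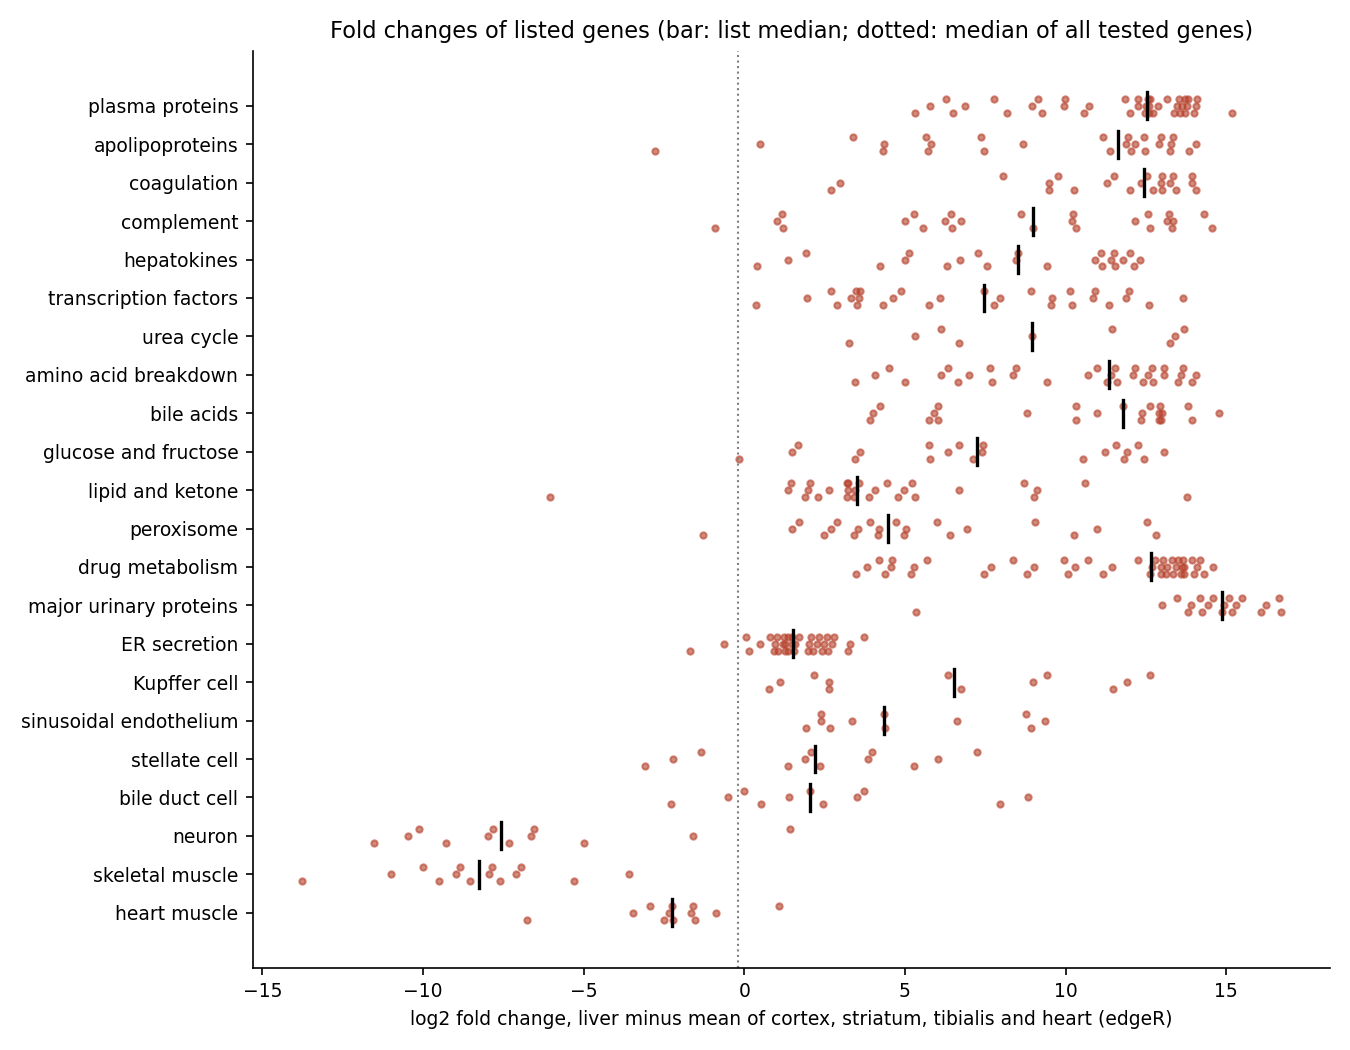
Changes of listed genes in liver. Each row is a gene list and each point a gene tested, at its log2 fold change, liver minus the mean of cortex, striatum, tibialis and heart (x, from the fit over 40 libraries); black bars are medians and the dotted line is the median of all 18594 genes, -0.18. Plasma, clotting, bile acid and drug genes centre between 11.80 and 12.66, secretion machinery at 1.51, and neuron and muscle markers at or under -2.24.

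Genes known from both ends of the hepatocyte plate were present together, as whole liver was sampled. All 12 periportal genes tested were higher and all 12 enriched (median 11.48), and of 16 pericentral genes 15 were higher, 0 lower (1 by library totals alone) and 11 enriched (median 6.17). In FPKM, Cyp2f2 of the portal side stood at 625 ± 82.9 and Cyp2e1 of the central side at 4298 ± 687 in liver (SD, n = 8). Glul, glutamine synthetase, is known to be confined in liver to cells at the central vein but is made by astrocytes and muscle too: it had 1172, 1385 and 1788 CPM in liver against medians of 994 in cortex, 884 in striatum, 471 in tibialis and 396 in heart, a change of 1.19 ± 0.09. Every liver library was above all others for Glul, but by a margin of 0.53. Axin2, a Wnt target, did not pass (-0.13 ± 0.12, edgeR, adjusted p = 0.292), with 5.18, 9.35 and 17.9 CPM in liver and a cortex median of 17.6.

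Other cell types of the liver were seen at low levels. All 12 Kupffer cell markers tested were higher (11 by library totals alone, where Csf1r lost the call) and 7 were enriched, with a median of 6.54 (6.65 with bounds), and they took 0.0493 ± 0.00943% of nuclear counts in liver. Clec4f, the receptor that marks Kupffer cells in mice, had 72.0, 87.3 and 148 CPM in liver and at most 0.381 CPM elsewhere. Cd5l had 69.7, 92.8 and 141 CPM, against at most 0.618 CPM elsewhere. Csf1r, a receptor that all macrophages carry, including microglia, had 40.2, 65.3 and 89.9 CPM in liver and 63.9 as a median in striatum, a margin of 0.05. C6, on this list and a complement gene that hepatocytes are known to make as well, had 27.2, 136 and 429 CPM.

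For sinusoidal endothelium all 11 markers tested were higher and 7 were enriched, with a median of 4.36. Clec4g had 53.5, 67.9 and 75.6 CPM in liver and at most 0.587 elsewhere, and Stab2, a scavenger receptor, 88.1, 101 and 128 CPM against a median of 11.7 CPM in tibialis. Stellate markers were mixed, with 9 of 12 higher, 3 lower and 2 enriched (40, 46 and 7.67% of all genes). Lrat, which stores vitamin A, had 7.74, 23.5 and 45.4 CPM in liver and at most 0.503 CPM elsewhere, while Rgs5, Pdgfrb and Des, which pericytes or muscle also make, were lower at -2.23 ± 0.09, -1.34 ± 0.07 and -3.09 ± 0.12. Of 11 bile duct markers 8 were higher (7 by library totals alone) and 2 lower: Krt19 had 0.774, 1.16 and 2.14 CPM and Epcam 1.12, 1.90 and 2.47 CPM in liver, so the duct signal was close to 1 CPM.

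Markers of the other organs were mostly lower in liver, but not all near 0. Of 12 neuron markers 11 were lower, of 10 striatal markers 9, of 10 glial markers 9, of 14 skeletal muscle markers 14 and of 12 heart markers 9 (46% of all genes were lower). Snap25, of the synapse, had 0, 0 and 0.360 CPM in liver against medians of 1686 in cortex and 1011 in striatum. Acta1, skeletal actin, had at most 0.0839 CPM in any liver, against a median of 23810 CPM in tibialis. Summed before scaling, the 12 neuron markers came to 17.4 to 29.3 CPM in liver libraries, against 11600 to 12780 CPM in cortex. The 10 glial markers came to 26.5 to 44.6 CPM in liver, against 5400 to 6492 CPM in cortex and 29.3 to 36.1 CPM in heart. The 14 skeletal muscle markers came to 0.59 to 1.76 CPM in liver, against 140400 to 154000 CPM in tibialis. The heart markers were uneven among the livers, with 0.236, 0.887 and 51.5 CPM before scaling as lowest, median and highest: they took 0.00564% of nuclear counts in M1 and 0.00407% in F1, and at most 0.000276% in the other 6. Whether RNA of another organ was in these 2 livers was not tested.

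Because the contrast averages 4 tissues on the log scale, a gene far higher in brain than in liver can still come out as higher in liver. Syt1 of the neuron list above is an example, as liver held more of it than tibialis and heart. Syt1, of synaptic vesicles, had 24.5, 29.6 and 39.5 CPM in liver against medians of 1053 in cortex, 640 in striatum, 0.0624 in tibialis and 0.306 in heart. Its change was 1.41 ± 0.18 against the mean but -5.16 against cortex and 6.46 against heart, and -0.49 against the mean on FPKM. Aldoc, of astrocytes, was alike, with 11.9, 16.4 and 20.6 CPM in liver against a cortex median of 429 CPM and a tibialis median of 0.296 CPM. Its change against the mean was 0.72 ± 0.11 by edgeR and -0.40 on FPKM.

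Liver lacked a set of genes that all 4 other tissues express. With at least 10 CPM in each of the 4 tissues, the 10 with the most negative change against the nearest tissue included Hrasls, Rbfox1, Eef1a2, Ccdc85a, Fgf13, Arhgap20, Scn4b, Timp4 and Cap2, several of which serve excitable cells. Rbfox1, a splicing factor of neurons and muscle, had 0, 0 and 0.123 CPM in liver, against medians of 176 in cortex, 262 in striatum, 284 in tibialis and 45.7 in heart. Eef1a2, the elongation factor of neurons and muscle, had 0, 0.0658 and 1.23 CPM in liver, against 422, 363, 1225 and 784 CPM in the same order. Scn4b, a subunit of voltage-gated sodium channels, had 0, 0.0452 and 0.461 CPM in liver against medians of 70.4 to 989.6 CPM. For these 3 genes, picked for their low values in liver, every liver library lay under all 32 others, as for 12.9% of all genes.

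Enzyme families are described by the copy that each tissue used most. In each family a liver form was set beside the forms of other tissues, and levels were compared as FPKM. The liver form was the most abundant of its family in liver in 21 of 21 families, against 6 in cortex, 6 in striatum, 1 in tibialis and 1 in heart. What counts as the liver form was set by hand, with earlier results of these data known. The count in liver therefore describes that choice and tests nothing. Pklr, the liver pyruvate kinase, stood at 54.2 ± 10.04 FPKM in liver (SD, n = 8) beside Pkm at 5.70 ± 1.21, and heart had 0.00921 FPKM of Pklr and 333 ± 15.7 FPKM of Pkm.

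Transport of fuel followed the same line. Slc2a2, the two-way glucose carrier of liver, stood at 137 ± 19.0 FPKM in liver and at 0.03 to 0.08 FPKM in the other tissues, where Slc2a1 and Slc2a3 led in brain and Slc2a4 in tibialis and heart. Cpt1a, which admits fatty acids to mitochondria, stood at 85.1 ± 21.6 FPKM in liver, 98.6% of its family, against 94.0% for Cpt1b in heart and 78.0% for Cpt1c in cortex. Arg1, Mat1a, Gls2, Gys2 and Pygl, of arginine, methionine, glutamine and glycogen, each made up 97.5 to 100% of their family in liver. Slc25a13, the aspartate carrier used for urea, made up 93.8% in liver and 39.0% in heart.

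For some families liver used the form of most tissues while muscle had its own. Cox6a1, Cox7a2 and Cox8a, subunits of cytochrome oxidase, made up 98.7 to 99.9% in liver and 98.2 to 99.8% in cortex, while in heart they made up 5.9, 23.4 and 10.5%. The weakest dominance was that of Pfkl, the liver phosphofructokinase, at 52.7% of its family in liver (7.68 ± 0.88 FPKM) beside 40.7% for Pfkm. All 3 phosphofructokinases were lower in liver than in the mean of the others, Pfkl by -0.30 ± 0.05 (edgeR, adjusted p = 3.88e-06). Acaca, the carboxylase of fatty acid synthesis, made up 62.5% beside Acacb. Creatine kinases, which buffer ATP in muscle and brain, were lower for all 4 genes, and liver had 2.01 ± 0.65 FPKM of Ckb as its highest.

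**Figure D4:**
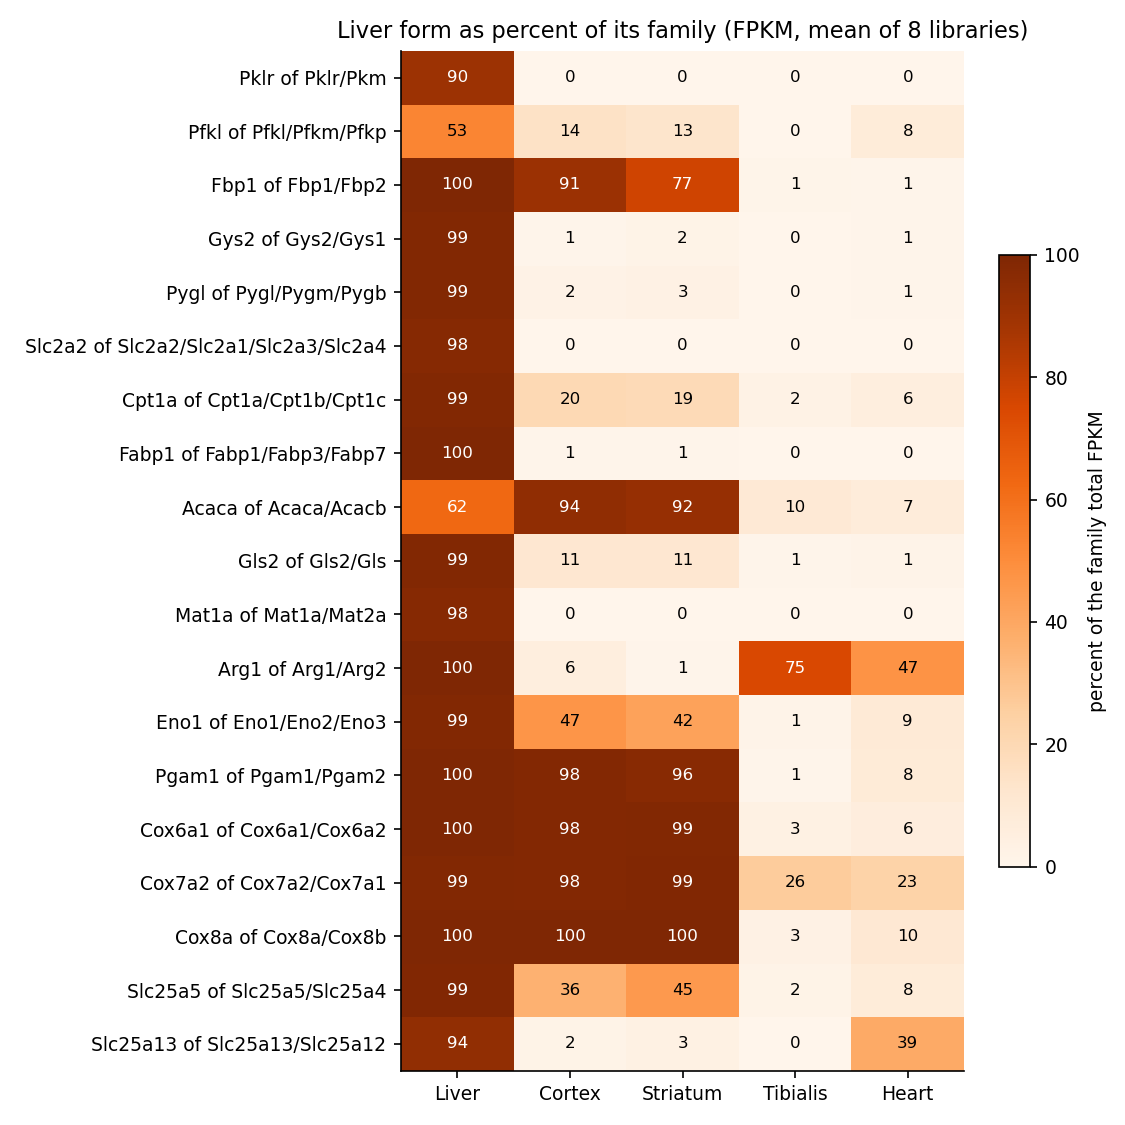
Use of the liver form in enzyme and carrier families. Rows are families, columns are tissues with liver first, and each cell gives the liver form as percent of the family's total FPKM, mean of 8 libraries. The liver column runs from 53% (Pfkl) to 100%, while the muscle and heart columns are near 0 for most families.

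The livers differed among themselves for some of the very genes that set them apart. Over 1145 enriched genes with at least 10 CPM in liver, the coefficient of variation between the 8 libraries had a median of 17.8%, with 7.54% and 83.9% as its 5th and 95th percentiles. It was under 10% for 168 genes and at least 100% for 46. The genes at both ends were picked after their values were seen. Steadiest among the 1092 that do not carry the name of a predicted gene were Ctsh, a lysosomal protease, with 279 to 302 CPM, and Proz, a clotting cofactor, with 357 to 392 CPM, followed by Txn1, Apoa2 and F10. Gc, the carrier of vitamin D, one of the abundant plasma proteins, had 7751 to 8853 CPM.

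At the other end single livers stood out. C1rb, a complement protease copy, had 165 CPM in liver F1 and 0.748 to 3.82 CPM in the other 7, and Cyp3a41a, a female-type P450, had 1786 CPM in F1 and 13.3 to 118 CPM in the rest. Marco, a macrophage scavenger receptor, had 84.3 CPM in liver M1 and 4.23 to 14.6 CPM in the others. Saa1 and Saa2, acute phase proteins, were highest in liver F3 at 661 and 374 CPM, with 15.1 to 135 and 8.30 to 55.7 CPM in the others, and these close copies may share reads. Onecut1, a factor of the hepatocyte circle, had 103 CPM in liver M4 and 5.84 to 18.8 CPM in the others. 

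Part of the liver genes also differed by sex. Of 14127 genes tested within liver, 96 (0.68%) were higher and 98 (0.694%) lower in males (edgeR, 4 against 4). These counts depend on the tool and on single livers: DESeq2 called 301 higher and 314 lower, and without 1 liver edgeR called 51 to 78 higher and 37 to 84 lower. At most 56 were higher without F2, F3, F4, M1, M3 or M4, and at most 61 were lower without F3, F4, M1, M3 or M4. Of the 1427 liver-enriched genes 30 were higher and 31 lower in males, together 4.27%, with 88 and 84 by DESeq2 and 19 to 32 and 14 to 28 without 1 liver. Apart from Uty, Eif2s3y, Ddx3y and Kdm5d of the Y chromosome and Xist, the largest changes included enzymes. Cyp4a12b, a fatty acid hydroxylase, had 118 to 213 CPM in male livers and 0.165 to 2.61 CPM in female livers, a change of 7.27 ± 0.57 (edgeR, adjusted p = 0.000377). Cyp2b13 had 0.790 to 1.19 CPM in males against 270.0 to 709 CPM in females, and Sult3a1, a sulfotransferase, 0.137 to 0.810 CPM against 68.4 to 138 CPM, changes of -8.88 ± 0.44 and -8.10 ± 0.42. Sult2a2 (-7.74, adjusted p = 0.0173) and Rps2-ps13 (-8.18 ± 1.62, adjusted p = 0.0477) were lower in males by edgeR, but lost the call when single livers were left out, Sult2a2 without M1, M2 or M3 and Rps2-ps13 without any one liver but F4.

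Major urinary proteins, which carry male scent in mouse urine, were liver genes in both sexes and male genes in part. All 19 tested were higher in liver than in the other tissues and enriched, with a median of 14.87 (14.62 with bounds), and they took 3.49 ± 2.06% of nuclear counts, from 1.445 to 7.34% among the livers. Of the 19, 7 were higher in males and 0 lower (36.8%, against 1.37% of all genes called either way). Mup7 had 772 to 16490 CPM in males and 61.6 to 108 CPM in females, a change of 6.38 ± 0.86 (edgeR, adjusted p = 0.00859). Mup3 differed less, with 6070 to 9234 CPM in males and 1282 to 2839 CPM in females, a change of 1.73 ± 0.27. Mup1 had 210 to 15660 CPM in males and 48.3 to 1817 CPM in females, groups that overlap, and did not pass (edgeR, adjusted p = 0.252). Mup10, the highest of them in FPKM, did not pass either (0.43 ± 0.20, edgeR, adjusted p = 0.386). These genes are near-identical copies, so the division of reads among them is uncertain.

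Further listed genes passed the test within liver in small numbers. Male livers were higher in Scp2, a peroxisomal lipid carrier, with 4356 to 6379 CPM in males and 2436 to 3414 CPM in females, and in C6, with 213 to 429 CPM against 27.2 to 59.5 CPM. Hamp2 had 31.6 to 58.4 CPM in males against 154 to 776 CPM in females. Esr1, the estrogen receptor and the only one of 29 transcription factors past this test, had 13.8 to 25.7 CPM in males and 44.0 to 50.8 CPM in females, a change of -1.26 ± 0.17 (edgeR, adjusted p = 0.00838). The Kupffer markers Clec4f and Vsig4 were lower in males at -0.73 ± 0.14 and -0.78 ± 0.14. The sexes did not overlap for these 6 genes, which were named because they passed the test on the same livers. Their lack of overlap is therefore no further test.

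**Figure D5:**
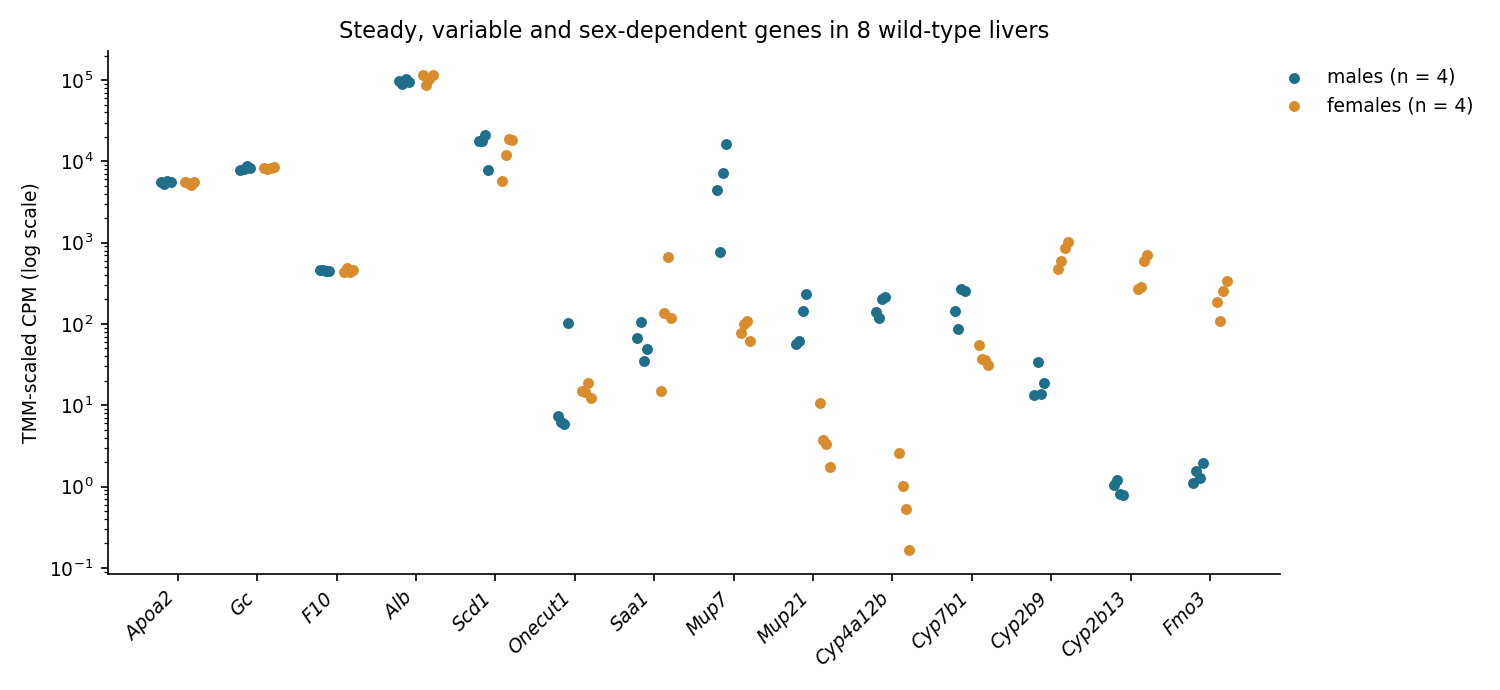
Steady, variable and sex-dependent genes in 8 wild-type livers. TMM-scaled CPM (y, log scale) for the genes on the x axis, male livers left and female livers right in each column, 1 point a library, n = 4 each. Apoa2 lies between 5178 and 5746 CPM in all 8, while Mup7 runs from 61.6 to 16490 CPM with all males above all females.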

How the data were processed

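Total RNA of 40 wild-type vehicle libraries was used (32 to 34 M counts in liver, 30.3 to 38.9 M elsewhere). The authors deposited, per gene, estimated counts (67.7% of values above 0 are whole) and FPKM (counts per length and library size); CASAVA 1.8.2 is named in the submitters' processing notes, and which aligner, annotation and FPKM tool were used is not given in the sources used here. Of 43432 gene identifiers, 42462 matched GENCODE M21.

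Estimated counts, as deposited, were rounded and fitted with edgeR 4.0.16 (quasi-likelihood, TMM) in R 4.3.3 over all 40 libraries, 1 group per tissue with a sex term and without a mouse term; males and females were compared within liver. Alternatives used DESeq2 1.42.0, RLE scaling, library totals, limma 3.58.1 on log2(FPKM + 0.1) for genes with a mean FPKM of at least 0.5, a mouse block, and fits without single livers. Shares of counts were compared with two-sided exact permutation tests, adjusted over 28 tests, which do not use the pairing of libraries by mouse. On simulated counts for 17386 genes, 100 genes were changed by a log2 of 1 and 100 by a log2 of 2. Of these 100% were recovered, with 9 wrong calls. No other gene had a tissue effect there, unlike in these data, so the simulation says nothing about scaling. With 3 counts or fewer over a group, a gene was treated as at the limit, which covers counting error only. Spread between libraries of different mice is what p-values measure.

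Mouse numbers in the labels pair the libraries. Over 5428 genes, deviations from the group means of liver and another tissue of the same mouse correlated with a median r of 0.272. Of these 32 pairs, 30 were above 0.1. The other 2 join liver F3 to the cortex and striatum libraries that go against their sex label. For different mice of the same sex the median r was -0.0878 (96 pairs). Deviations from a group mean cancel out over the group, so values for different mice are tied to those for the same mouse. They are no independent baseline.

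Named genes were the 10 most abundant in liver, the 10 enriched and the 10 depleted with the largest margins, up to 6 members of each list by FPKM, members that did not follow their list, all members of enzyme families, and the largest sex differences. Members and lists were chosen with earlier results of these data known. Further genes named for their spread between livers were chosen after their values were seen. Some members of the lists are counted but not reported here by name.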

Additional observations from a re-analysis of the deposited data

Results flagged for a closer look

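In 5 of 141 groups of liver values examined, 1 library stood further from the other 7 than Dixon's critical value for 8 allows. Chance flags about 1 in 20 groups. The share of mitochondrial-genome counts was 10.59% in liver M3, with 8.41 to 9.04% in the others. Nr0b2, a bile acid-induced repressor, had 54.31 CPM in liver F2, with 28.8 to 40.5 CPM in the others. Onecut1 had 103.2 CPM in liver M4, with 5.84 to 18.8 CPM in the others. Gata4 had 28.81 CPM in liver F1, with 16.2 to 21.7 CPM in the others. Slc25a12, a mitochondrial aspartate carrier, had 26.35 CPM in liver F3, with 20.65 to 23.1 CPM in the others. What sets these libraries apart was not tested.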

How the results depend on the processing

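With library totals in place of TMM scaling, 4782 genes were higher in liver than in the mean of the other tissues, 4140 than in cortex and 4195 than in striatum; on FPKM with limma these counts were 4084, 3604 and 3648, and 717 genes were depleted. A margin of 1 gave 2388 enriched and 2750 depleted genes, and a margin of 3 gave 1092 depleted genes. DESeq2 called 301 genes higher and 314 lower in male livers. Without single livers the calls by sex ran from 51 to 78 higher and from 37 to 84 lower. With mitochondrial-genome transcripts counted, liver minus tibialis was -0.3032 percentage points for the most abundant gene, and liver minus heart was -4.084, -14.02, -12.05 and -8.18 points for the top 1, 10, 50 and 100 genes, 80.88 genes at 50% and 468.3 effective genes. On FPKM, liver minus heart was 0.06719, -8.48, -2.297 and 0.264 points, -1.25 genes and 85.62 effective genes in the same order. Without pseudogenes the top 10 genes differed from heart by 4.751 points, and liver minus tibialis was 10.38 genes at 50% (adjusted p = 0.168). The causes were not tested. Against the mean of 4 tissues, values changed sign on FPKM and with library totals for Zhx2 (-0.2522, -0.2504), Sec11c (-0.4722, -0.5601), Tspan8 (-0.6133, -0.05568) and Cox7a2 (-0.5305, -0.5344), and on FPKM alone for Syt1 (-0.4853) and Aldoc (-0.4037). With the replicate block by mouse, 7440 genes were higher and 8575 lower, 1430 enriched and 1713 depleted; among named genes the block changed only the call of Actc1 (-2.32, edgeR, adjusted p = 0.0103, against -1.58 and 0.0667 without it). Without the 8 libraries with albumin above 5 CPM, 7618 genes were higher and 8429 lower, and Gad2 and Myl3 lost their calls; without the 2 brain libraries against their sex label, 7447 were higher and 8555 lower. Depth limits calls for genes near the limit of 3 counts over a group.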

Other observations

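Genes of the daily clock were looked at after their values were seen, and the labels give no time of sampling. The mouse of liver F1 lay at one end. Arntl, which drives the clock, had 32.2 CPM in its liver, with 0.990 to 18.7 CPM in the other livers, and 26.9 CPM in its heart, with 1.90 to 19.6 CPM in the other hearts. In its tibialis Arntl had 40.8 CPM, with 9.74 to 31.1 CPM in the others. Dbp, an output gene of the clock, had 2.11 CPM in the liver of that mouse, with 28.4 to 119 CPM in the other livers, and 8.57 CPM in its heart, with 21.5 to 95.6 CPM in the others. The mouse of liver F3 lay at the other end for Per3, a clock repressor, with 114 CPM in liver, 83.7 in heart and 94.3 in tibialis, against 4.53 CPM in the liver of the mouse of F1.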
